A study of Arabidopsis thaliana with 12 samples.

Results

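The 52 genes described here are Arabidopsis thaliana cytochrome P450 genes of the subfamilies CYP71A, CYP71B, CYP72A, CYP76C, CYP81D, CYP81F, CYP82 and CYP94, out of 28775 genes in the count tables. They were chosen by locus code, with results of these 12 libraries already known, so the list is not an independent sample of P450 genes. All 52 were found in the files, 51 had at least 1 count, and 40 had enough counts to be tested.

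RNA was sequenced from 3-week-old seedlings of ecotype Col-0, as 12 libraries in 4 groups of 3, to find starvation-responsive genes that depend on the SnRK1 kinase or on S1 bZIP transcription factors. The line labelled as a SnRK1 knockdown combines a snrk1-alpha-1 knockout with an inducible snrk1-alpha-2 knockdown. It was compared with wild type. Both received the additive named Est from age 14 d onwards, for 6 d. The line labelled as an S1 bZIP knockdown lacks bZIP1 and bZIP53 by knockout and carries inducible knockdown constructs against bZIP2, bZIP11 and bZIP44. It and its own wild type grew 5 d longer on MS medium and then received Est for 1 d. All 4 groups had a night prolonged by 6 h before harvest, and no group lacked Est or the prolonged night. The 2 wild types are called the 6 d wild type and the 1 d wild type below.

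Cytochrome P450s are heme enzymes, mostly of the endoplasmic reticulum, that insert an oxygen atom into small molecules with electrons from a reductase or cytochrome b5. In plants the families are large, often stand in runs of tandem copies, and make or inactivate hormones, defence compounds, terpenoids and foreign chemicals. Among the 52 genes, CYP94 enzymes oxidise the active jasmonate hormone. CYP81F enzymes modify indole glucosinolates, CYP82C2 and CYP71B6 act on indole nitriles, and CYP76C enzymes oxidise monoterpene alcohols. For most CYP71B, CYP72A and CYP81D members no substrate is given here.

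Library totals ran from 3760168 to 9403687 counts. Levels are counts normalised to library size multiplied by its TMM scaling factor (CPM), so they are not shares of all counts. These factors ran from 0.827 to 0.923 in the 6 d wild type and from 1.22 to 1.38 in the SnRK1-labelled line. Changes are log2 fold changes ± standard error from 1 edgeR quasi-likelihood fit across 18388 genes. A gene counts as called where its p, adjusted by Benjamini-Hochberg across those genes, is under 0.05. Nothing in the labels ties the replicates to separate cultures. The p-values thus reflect only how far these samples scatter, and that scatter may be technical. Of the targeted genes, KIN10, the first SnRK1 catalytic subunit, still measured 62.5 ± 2.81 CPM (SD, n = 3) in the SnRK1-labelled line against 88.1 ± 10.7 in its wild type, and KIN11, the second, measured 33.6 ± 8.53 against 99.4 ± 14.5. In the S1-labelled line bZIP1 measured 21.6 ± 4.52 against 132 ± 12.4 CPM and bZIP53 16.5 ± 1.37 against 78.9 ± 9.35, whereas bZIP2 measured 66.7 ± 6.99 against 66.1 ± 7.24, with no call. The other targets of the inducible knockdown were low and not called either, bZIP11 at 1.18 ± 0.47 against 1.42 ± 0.332 CPM and bZIP44 at 1.93 ± 0.665 against 1.000 ± 0.474. KIN11 was also called lower in the S1-labelled line, at 43.5 ± 2.91 against 75.4 ± 9.48 CPM. The lines are therefore named by their labels.

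The 3 leaf markers summed to 2571 to 5077 CPM in the SnRK1-labelled libraries and to 18139 to 29394 CPM in the other 9. The 6 root markers summed to 6.05 to 6.76 CPM in the SnRK1-labelled line and 17.6 to 24.0 in its wild type. They summed to 8.44 to 20.8 CPM in the 1 d wild type and 7.05 to 13.2 in the S1-labelled line. Of the root markers, COBL9 and EXPA7 had group means between 0 and 0.485 CPM, and the seed storage markers summed to at most 0.289 CPM in any library. The part of these markers in the results below was not tested, and in whole seedlings fewer cells of a type and less RNA per cell cannot be told apart.

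Together the 52 genes took up 1464 to 1579 CPM in the 6 d wild type, 1962 to 2617 in the SnRK1-labelled line, 1744 to 1977 in the 1 d wild type and 2642 to 2708 in the S1-labelled line. Both lines lay above their own wild type in all 3 libraries. Single genes carried much of these sums. CYP81D8 made up 21.8% of the sum in the SnRK1-labelled line and 0.530% in its wild type. CYP81D11 made up 30.1% in the S1-labelled line and 21.7% in its wild type. Without CYP81D11 the sum was still 1851 to 1905 CPM in the S1-labelled line against 1394 to 1518 CPM in its wild type. Without CYP81D8 the SnRK1-labelled line kept 1538 to 2048 CPM against 1454 to 1571 CPM, and these TMM-scaled ranges overlapped. With CYP81D8 included, the 52 genes held 0.121% to 0.138% of all counts in the 6 d wild type. In the SnRK1-labelled line they held 0.257% to 0.319% of all counts.

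Per kilobase of annotated exon, CYP72A13 had the highest level in the 6 d wild type, at 112 CPM per kb, followed by CYP81D11 at 101 and CYP72A15 at 74.1. In the SnRK1-labelled line CYP81D8 led with 274 CPM per kb, and CYP71B6 came next with 97.2. CYP81D11 was highest in the 1 d wild type, at 253 CPM per kb, and in the S1-labelled line, at 506.

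**Figure D1:**
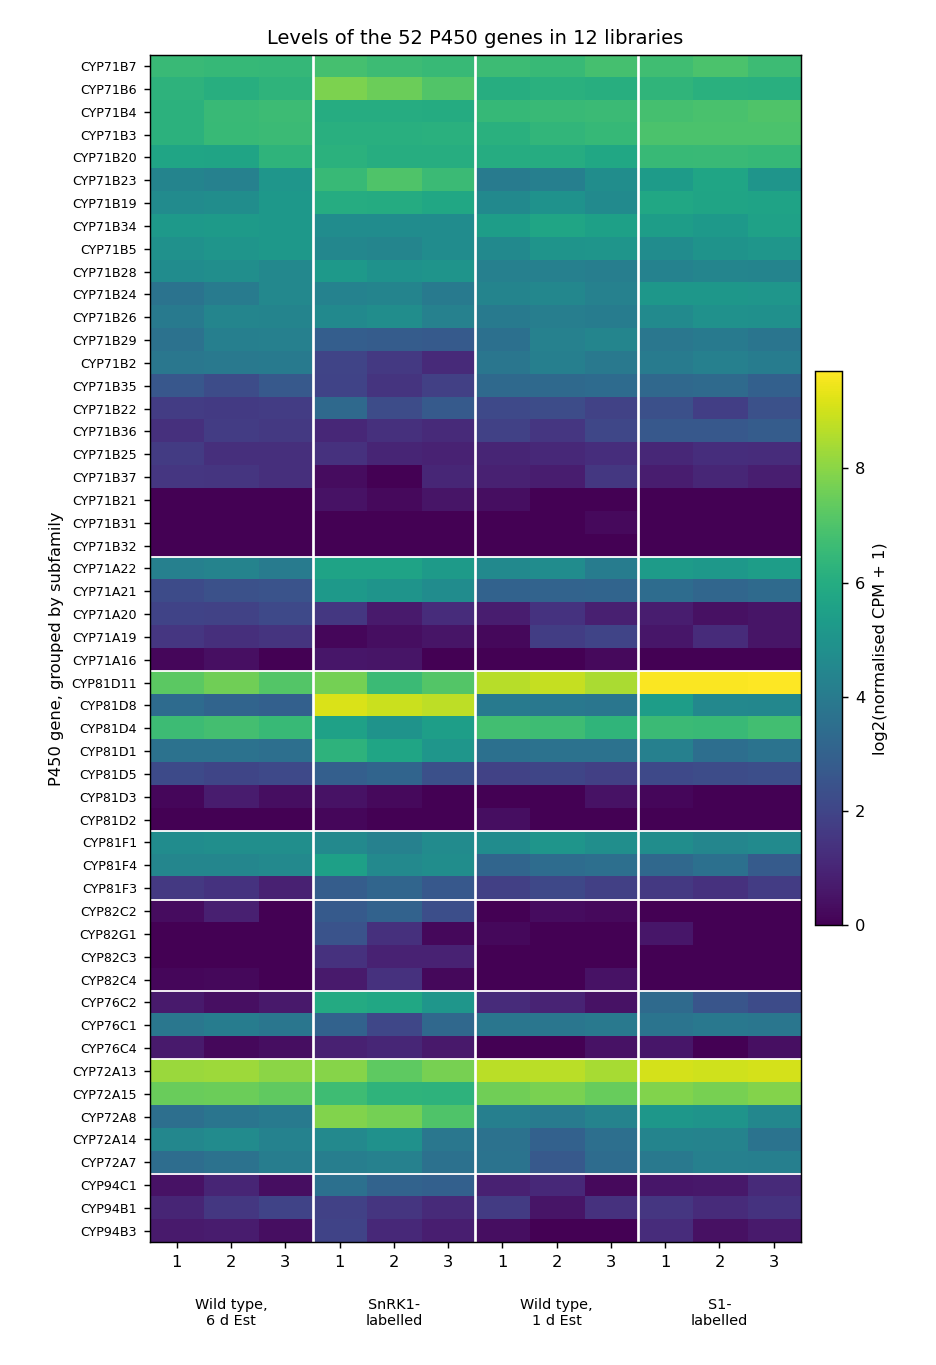
Level of each of the 52 P450 genes (rows, by subfamily and then by mean level) in each of the 12 libraries (columns, replicates 1 to 3 of 4 groups), as log2(normalised CPM + 1) on the colour scale. CYP81D8 and CYP72A8 are bright in the SnRK1-labelled columns, CYP81D11 is brightest in the S1-labelled ones, and CYP71B32 has no count in any library.

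The 12 genes that were not tested were CYP71B21, CYP71B25, CYP71B31, CYP71B32, CYP71A16, CYP81D2, CYP81D3, CYP82C3, CYP82C4, CYP82G1, CYP76C4 and CYP94B3. CYP71B25 measured 2.19, 1.48 and 1.44 CPM in the 6 d wild type and 1.63, 0.993 and 0.901 CPM in the SnRK1-labelled line, and these values overlapped. CYP71B31, known for linalool oxidation in flowers, had a single count over the 12 libraries together. CYP81D2 and CYP81D3 stayed under 0.659 CPM in every library. The filter removed these genes for low counts, so the counts below describe the 40 that passed and not all 52. CYP76C2, CYP94C1 and CYP82C2 had means of at most 0.872 CPM in both wild types and passed only through lines where they were high. A call of lower was thus hardly possible for them there.

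In the S1-labelled line 11 of the 40 tested genes rose against the 1 d wild type and 0 fell. At an unadjusted edgeR p under 0.05, 16 were higher and 0 lower, against 8.27% and 8% of all genes tested. DESeq2 and limma-voom each called 10 higher and 0 lower. Across all 18388 genes tested, 1.63% rose and 0.952% fell by the adjusted p of edgeR. The genes that rose were CYP71B3, CYP71B19, CYP71B20, CYP71B23, CYP71B24, CYP71B26, CYP71B36, CYP71A22, CYP81D8, CYP81D11 and CYP76C2. Of these 11, 7 belong to CYP71B, a subfamily that holds 18 of the 40 tested genes. The median log2 fold change of the 40 was 0.20, and that of all genes was -0.00. For 19 of the 40 every S1-labelled library lay above every wild-type library, and for 1 below. Over all genes tested these shares were 11.6% and 12%. The genes were chosen with results of these libraries known, so these counts are a description and no inference is made from them.

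The count of calls depended on the number of libraries. It was 3, 3 and 5 without replicates 1, 2 and 3 of the 1 d wild type and 6, 4 and 8 without replicates 1, 2 and 3 of the S1-labelled line. CYP71B19, CYP71A22 and CYP76C2 were called in each of these fits, and the other 8 each lost their call in at least 1. CYP76C2 is 1 of the genes that passed the filter only through lines where they were high. Where CYP81D11 lost its call its log2 fold change was 0.91 to 1.11 (edgeR adjusted p 0.0521 to 0.103), and where CYP71B3 did it was 0.51 to 0.64 (edgeR adjusted p 0.0508 to 0.0516), close to the values with all libraries. Of the 11, 5 had a change of at least 2-fold.

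In the SnRK1-labelled line 16 of the 40 tested genes rose and 14 fell, leaving 10 without a call. Of all genes tested 35.4% rose and 33% fell. The choice of these P450 genes drew on this comparison, so its values are a description and no inference is made from the counts. The median log2 fold change of the 40 was 0.19 and that of all genes 0.04.

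This split moved with the scaling. The 10 most abundant genes took up 4.1% to 5.27% of the counts in the SnRK1-labelled line and 9.49% to 13.6% in the other libraries. With library totals alone the median of all genes was 0.64, and 24 of the 40 rose and 7 fell. With factors from the 5000 most expressed genes, the median was 0.40 and the split was 21 against 8. The values of CYP71B3, CYP71B4, CYP71B5, CYP71B34 and CYP72A13, called lower at -0.55 to -0.33, turned to 0.056 to 0.26 with library totals. These 5 fell relative to the median of all genes, while their share of all counts did not fall.

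The 2 line comparisons use different wild types. Of the 11 genes that rose in the S1-labelled line, 5 also rose in the SnRK1-labelled line, 1 fell there and 5 had no call. The 5 that rose in both were CYP71B19, CYP71B23, CYP71A22, CYP81D8 and CYP76C2, and CYP71B3 was the one that fell. Of all genes tested 35.4% rose and 33% fell in the SnRK1-labelled line. With library totals and with the 5000-gene factors, CYP71B20, CYP71B24 and CYP71B26 were called higher in that line and CYP71B3 was not called. CYP81D11 was called higher there with library totals. The difference between the 2 responses (SnRK1 minus S1) was called higher for 11 of the 40 genes and lower for 14, and over all genes tested these shares were 27.2% and 27.3%. It became 17 against 7 with library totals, 15 against 9 with the 5000-gene factors and 11 against 10 with DESeq2. The difference contains the SnRK1 comparison and is a description too.

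**Figure D2:**
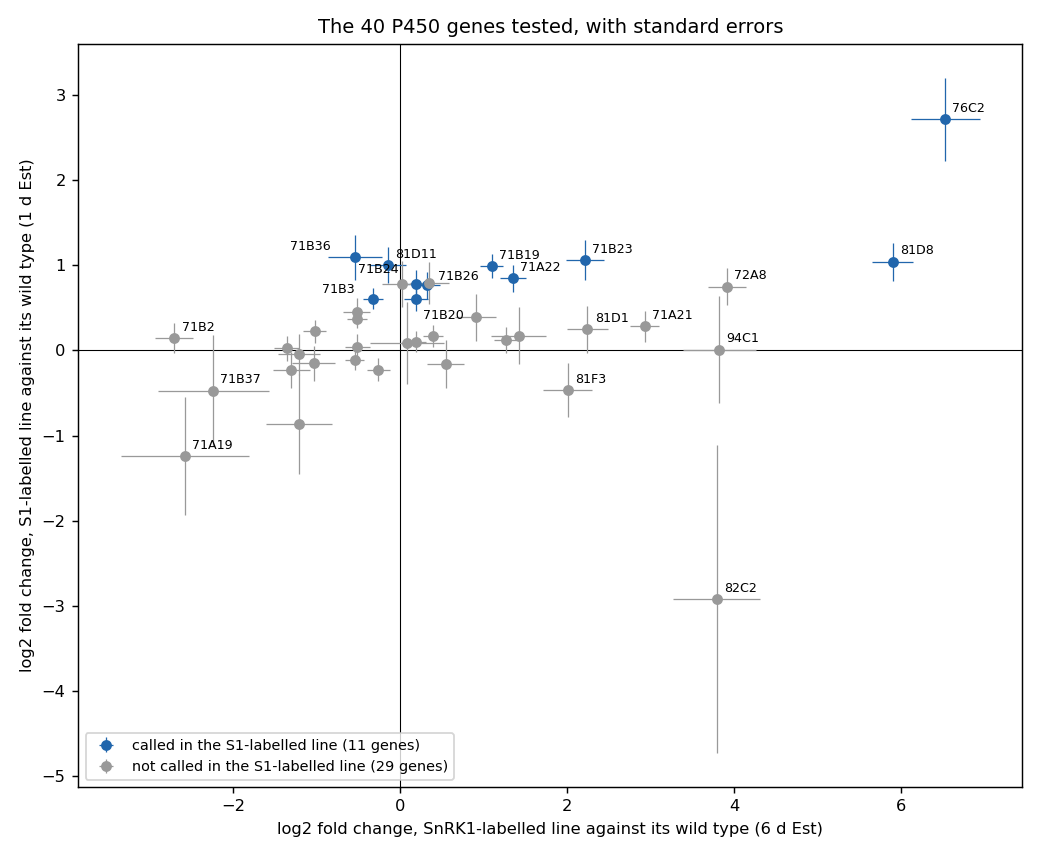
Log2 fold change in the SnRK1-labelled line (horizontal) against that in the S1-labelled line (vertical) for the 40 tested P450 genes, each with its standard error, and blue where called in the S1-labelled line. All 11 blue points lie above 0 on the vertical axis, and 2 of them, CYP76C2 and CYP81D8, lie far to the right, while CYP82C2, with 2 counts in the 1 d wild type and 0 in the S1-labelled line, has no usable vertical value.

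Jasmonate turnover was described by 3 members. CYP94C1 (AT2G27690), which oxidises 12-hydroxy-jasmonoyl-isoleucine to its carboxy form, measured 0.386, 0.988 and 0.289 CPM in the 6 d wild type and 10.9, 7.58 and 6.76 CPM in the SnRK1-labelled line. Every library of the line lay above every wild-type library, with a log2 fold change of 3.82 ± 0.43. It measured 0.844, 1.19 and 0.2 CPM in the 1 d wild type and 0.483, 0.54 and 1.23 in the S1-labelled line, and the groups overlapped.

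CYP94B3 (AT3G48520), the enzyme that adds the 12-hydroxyl group to jasmonoyl-isoleucine, was too low to be tested. Its 3 SnRK1-labelled libraries held 23, 13 and 5 counts and its wild type 5, 4 and 1. The S1-labelled line held 11, 2 and 4 counts, most of them in replicate 1, and the 1 d wild type 2, 0 and 0. CYP94B1 (AT5G63450), with the same reaction, measured 1.03, 1.98 and 2.89 CPM in the 6 d wild type, 2.63, 1.81 and 1.2 in the SnRK1-labelled line, 2.25, 0.476 and 1.6 in the 1 d wild type and 1.93, 1.26 and 1.68 in the S1-labelled line. It was called in neither line, and its groups overlapped in both experiments.

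Of 8 other genes of jasmonate turnover, 7 were tested, 6 rose in the SnRK1-labelled line and 0 were called in the S1-labelled line, where 3 were higher at an unadjusted p under 0.05. Of all genes tested, 1.63% rose and 8.27% were higher at that p in the S1-labelled line. In the SnRK1-labelled line 35.4% of all genes rose. JOX4, a jasmonic acid oxidase, went from 0.606 ± 0.414 to 110.02 ± 57 CPM, and ST2A, a hydroxyjasmonate sulfotransferase, from 9.84 ± 3.54 to 456 ± 199.7 CPM. IAR3, an amidohydrolase that releases jasmonates from isoleucine, went from 33.7 ± 0.458 to 339.8 ± 113 CPM, and JOX3 from 1.17 ± 0.144 to 85 ± 58.7.

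Indole metabolism included 5 members. CYP71B6 (AT2G24180), which converts indole-3-acetonitrile towards indole carbaldehyde, measured 75.8, 67.3 and 78.8 CPM in the 6 d wild type and 218, 183 and 133 CPM in the SnRK1-labelled line. These groups did not overlap, and the log2 fold change was 1.27 ± 0.15. The 1 d wild type, at 65.3, 70.9 and 67 CPM, and the S1-labelled line, at 81.3, 70.1 and 68.3, overlapped.

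CYP82C2 (AT4G31970), the hydroxylase that makes 4-hydroxyindole-3-carbonyl nitrile, had 2, 5 and 0 counts in the 6 d wild type and 46, 81 and 27 in the SnRK1-labelled line, with a log2 fold change of 3.79 ± 0.52. In CPM the line stood at 5.77, 7.31 and 4.06 and its wild type at 0.257, 0.823 and 0. It had 0, 1 and 1 counts in the 1 d wild type and 0 in each S1-labelled library, so no change can be given there. Its neighbour CYP82C3, to which no substrate is assigned here, had 13, 10 and 6 counts in the SnRK1-labelled line and 0 in the other 9 libraries. Setting the wild-type group at 3 counts gives a bound of at least 6.51-fold higher.

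The CYP81F enzymes hydroxylate the indole ring of indole glucosinolates. CYP81F3 (AT4G37400) rose from 2.06, 1.65 and 0.866 CPM in the 6 d wild type to 6.27, 8.03 and 5.41 CPM in the SnRK1-labelled line, with no overlap and a log2 fold change of 2.00 ± 0.29. It measured 2.53, 3.33 and 2.6 CPM in the 1 d wild type and 2.05, 1.62 and 2.3 in the S1-labelled line, with every library of the line lower and no call. CYP81F1 (AT4G37430) measured 25.3, 26.5 and 26.5 CPM in the 6 d wild type, 22.9, 18.2 and 24.3 in the SnRK1-labelled line, 25.6, 32.3 and 26.4 in the 1 d wild type and 26.2, 20.9 and 24.2 in the S1-labelled line. It was called in neither line, although every SnRK1-labelled library lay below its wild type. Its value of -0.27 turned to 0.33 with library totals, where it was called higher.

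CYP81F4 (AT4G37410), the enzyme for position 1 of the indole ring, measured 20.7, 20.7 and 22.8 CPM in the 6 d wild type and 45.1, 22.5 and 26 CPM in the SnRK1-labelled line. It was called higher at 0.55 ± 0.22, although replicate 2 of the line lay within the wild-type range, and without replicate 1 of the line the value was 0.18 and the call was lost. It was also lost without any 1 of the 6 d wild-type libraries and with limma-voom. Exons of CYP81F4 overlap an antisense gene over 88.2% of their length and those of CYP81F1 over 98.4%, and without the strand of the reads the gene and its antisense partner cannot be told apart.

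Of 15 further genes of the indole glucosinolate and indole nitrile route, all tested, CYP71A12 alone rose in the S1-labelled line. There 1.63% of all genes tested rose. In the SnRK1-labelled line 14 of the 15 rose, against 35.4% of all genes. CYP71B15, the last enzyme of camalexin synthesis, went from 1.1 ± 0.563 to 849 ± 198 CPM, and CYP79B2, which starts the route from tryptophan, from 2.49 ± 1.18 to 199 ± 60.1 CPM. CYP71A12 and CYP71A13, which convert indole-3-acetaldoxime to indole-3-acetonitrile, reached 120.1 ± 16.4 and 578 ± 174 CPM in that line.

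Terpenoid and coumarin enzymes included both the largest rise and very low genes. CYP76C2 (AT2G45570), a monoterpenol oxidase known for expression in ageing and dying leaf tissue, measured 0.643, 0.329 and 0.577 CPM in the 6 d wild type and 60.2, 54.5 and 33.5 CPM in the SnRK1-labelled line. All 3 libraries of the line were far above the wild type, with a log2 fold change of 6.53 ± 0.41, the largest among the 40. It also rose in the S1-labelled line, from 1.27, 0.951 and 0.4 to 9.18, 4.86 and 3.68 CPM, by a log2 fold change of 2.71 ± 0.49 (edgeR adjusted p = 0.00702, higher in 3 of 3 libraries). With limma-voom the adjusted p of that change was 0.0572. The 1 d wild type held 9, 4 and 2 counts of CYP76C2, so a call of lower was hardly possible in the S1-labelled line.

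Its neighbour CYP76C1 (AT2G45560), a linalool oxidase of flowers, did the opposite in the SnRK1-labelled line. It fell from 13.5, 16 and 13 CPM to 7.27, 3.16 and 8.71 CPM, by a log2 fold change of -1.21 ± 0.25 with no overlap. Its values were 13.1, 13.1 and 14 CPM in the 1 d wild type and 12.2, 13.9 and 12.9 in the S1-labelled line, and the groups overlapped. CYP76C4, the other gene of that run, stayed at or under 1.08 CPM in all libraries. The 1 flower marker that was tested fell in the SnRK1-labelled line (-3.67), and its part in the CYP76C1 values was not tested.

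CYP82G1 (AT3G25180), which makes the volatile homoterpene released by attacked leaves, had 0 counts in the 6 d wild type and 36, 17 and 1 in the SnRK1-labelled line. Replicate 1 supplied 36 of the 54 counts. The S1-labelled line held 4, 0 and 0 counts and the 1 d wild type 1, 0 and 0. TPS04, the synthase of its precursor geranyllinalool, was at 0 in the 6 d wild type and at 68.8 ± 70.03 CPM in the SnRK1-labelled line.

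CYP82C4 (AT4G31940), which hydroxylates the iron-binding coumarin fraxetin, had 1, 1 and 0 counts in the 6 d wild type and 5, 18 and 1 in the SnRK1-labelled line, most of them in replicate 2. The groups overlapped in CPM, at 0.129, 0.165 and 0 in wild type and 0.627, 1.62 and 0.15 in the line. It had 0, 0 and 2 counts in the 1 d wild type and 0 in the S1-labelled line. Of 10 genes of the iron and coumarin route, 7 were tested, 4 rose in the SnRK1-labelled line and 0 were called in the S1-labelled line, where 1 was higher at an unadjusted p under 0.05. Of all genes tested, 1.63% rose and 8.27% were higher at that p in the S1-labelled line. In the SnRK1-labelled line 35.4% of all genes rose. F6H1, which starts coumarin synthesis, went from 2.13 ± 0.842 to 63.2 ± 18 CPM, and bHLH38, an iron-deficiency regulator, from 0.194 ± 0.0839 to 83.8 ± 20.9.

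CYP71A16 (AT5G42590), an oxidase of the marneral route in roots, had 1, 2 and 0 counts in the 6 d wild type, 4, 5 and 0 in the SnRK1-labelled line, 0, 0 and 1 in the 1 d wild type and 0 in the S1-labelled line. MRN1, the marneral synthase, stayed at or under a group mean of 0.226 CPM. Neither was tested.

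The CYP81D subfamily held the highest level per length in 3 of the 4 groups. CYP81D8 (AT4G37370), best known as a marker of stress and xenobiotic responses, measured 9.39, 7.74 and 6.93 CPM in the 6 d wild type and 569, 479 and 424 CPM in the SnRK1-labelled line, a log2 fold change of 5.90 ± 0.24 with a wide gap between the groups. In the S1-labelled line it rose from 14.5, 13.8 and 13 to 40.8, 22.2 and 21.3 CPM, by 1.04 ± 0.23 on the log2 scale (edgeR adjusted p = 0.021, 3 of 3 libraries higher). Replicate 1 of that line was the highest, and without it the value was 0.65 and the call was lost. It was also lost without any 1 of the 1 d wild-type libraries, at 1.00 to 1.09.

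CYP81D11 (AT3G28740), known for induction by foreign chemicals and by volatile jasmone, rose in the S1-labelled line. It measured 402, 459 and 349 CPM in the 1 d wild type and 802, 792 and 829.7 CPM in the S1-labelled line, a log2 fold change of 1.00 ± 0.21 (edgeR adjusted p = 0.018). All 3 libraries of the line lay above the wild type. The 6 d wild type, at 154, 194 and 135 CPM, and the SnRK1-labelled line, at 204, 97.9 and 135, overlapped. Its SnRK1 value was -0.15 ± 0.21, with no call, and turned to 0.43 with library totals, where it was called higher.

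CYP81D1 (AT5G36220) rose from 11.5, 11.5 and 10.7 CPM in the 6 d wild type to 75.2, 51.4 and 33.2 CPM in the SnRK1-labelled line (2.24 ± 0.25), with no overlap. The 1 d wild type, at 11.1, 11.6 and 11.6 CPM, and the S1-labelled line, at 17.6, 10.3 and 12.1, also stood close, with overlap. CYP81D4 (AT4G37330) took the other direction, from 100.2, 110.3 and 91.5 CPM in the 6 d wild type to 45.4, 30.9 and 41.9 CPM in the SnRK1-labelled line, a log2 fold change of -1.36 ± 0.15. The 1 d wild type measured 109, 102 and 81.2 CPM and the S1-labelled line 95.5, 94 and 107, with overlap. CYP81D5, at 3.35 ± 0.197 CPM in the 6 d wild type and 6.18 ± 1.78 in the SnRK1-labelled line (SD, n = 3), rose by 0.91 ± 0.25.

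Genes of detoxification outside the P450s were read beside these. Of 13 listed and tested, 13 rose in the SnRK1-labelled line and 9 rose in the S1-labelled line, with medians of 3.37 and 1.19 on the log2 scale. Over all genes tested 35.4% and 1.63% rose. Between the wild types 8 of the 13 were lower with 6 d of Est and 0 were higher, against 5.94% and 6.17% of all genes. DTX3, an efflux carrier, measured 2.26 ± 1.06 CPM in the 1 d wild type and 9.61 ± 1.3 in the S1-labelled line (2.12 ± 0.25, edgeR adjusted p = 0.000472). In the SnRK1 experiment it went from 0.765 ± 0.104 to 389 ± 48.6 CPM. UGT73B5, a glycosyltransferase, went from 34.7 ± 3.71 to 87.3 ± 9.17 CPM in the S1 experiment (1.33 ± 0.17, edgeR adjusted p = 0.000753). This list was also drawn up with results of these libraries known.

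**Figure D3:**
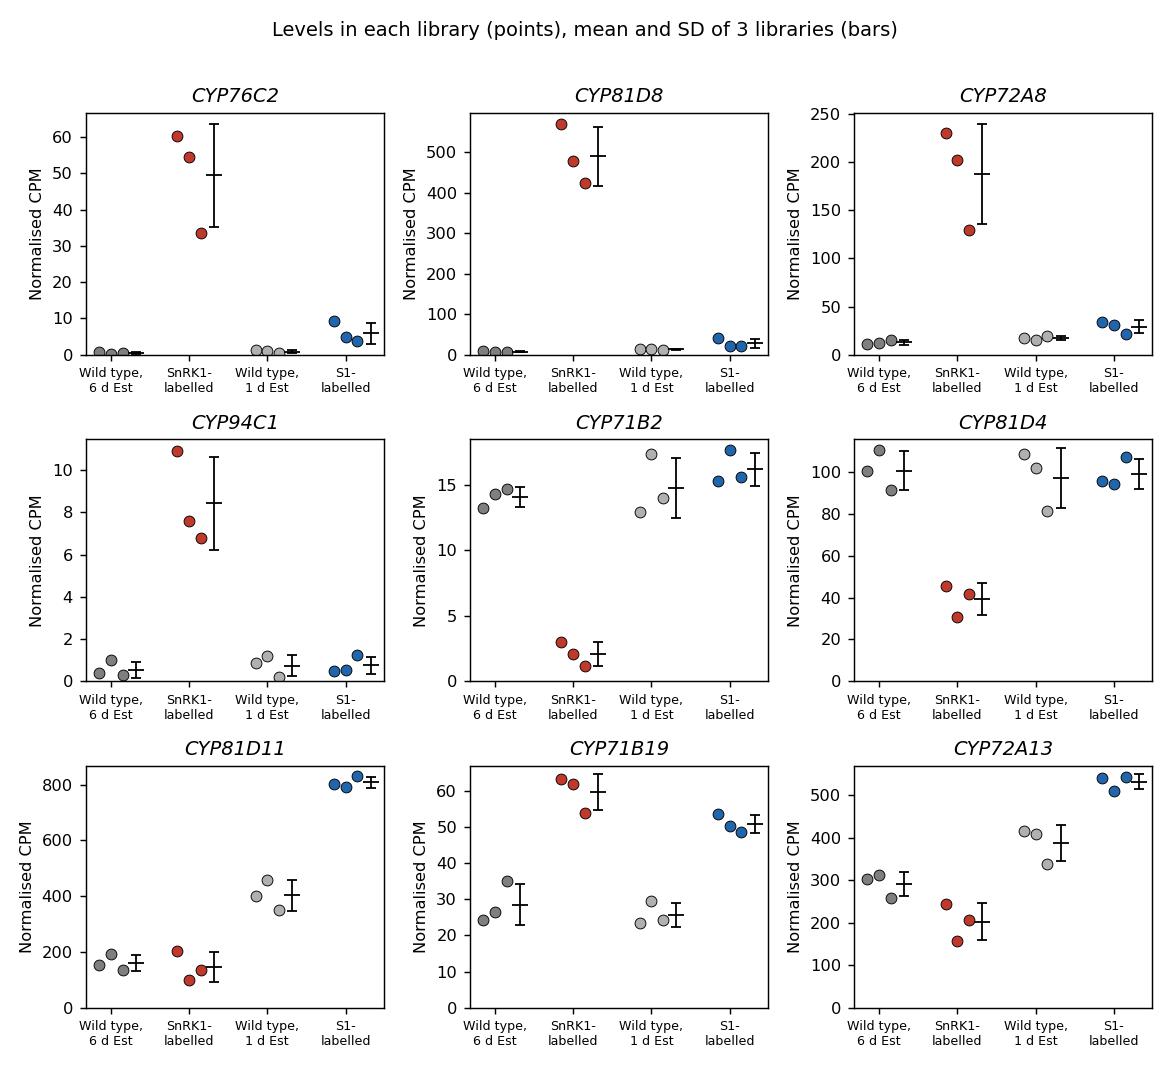
Normalised CPM of 9 P450 genes in each library (points, from 0 on a linear axis), with the mean and SD of 3 libraries beside them. CYP76C2, CYP81D8, CYP72A8 and CYP94C1 stand high in the SnRK1-labelled line, CYP71B2 and CYP81D4 stand low there, and CYP81D11 and CYP72A13 are highest in the S1-labelled line.

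The 5 CYP72A members sit in 1 run on chromosome 3, broken by other genes. CYP72A8 (AT3G14620) measured 10.7, 12.5 and 15 CPM in the 6 d wild type and 230.2, 202 and 129.7 CPM in the SnRK1-labelled line, a log2 fold change of 3.91 ± 0.22. Its S1-labelled libraries, at 34.1, 31.3 and 21.3 CPM, all lay above the 1 d wild type, at 17.2, 15.2 and 19.2 CPM, but the change of 0.75 ± 0.22 was not called (edgeR adjusted p = 0.09). With TMM scaling the run therefore holds 1 gene that rose in the SnRK1-labelled line beside 2 that fell.

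CYP72A15 (AT3G14690) fell from 179, 181 and 160.1 CPM in the 6 d wild type to 102, 77.2 and 76.9 CPM in the SnRK1-labelled line, a log2 fold change of -1.02 ± 0.14. In the S1 experiment it stood at 193, 214 and 172 CPM in wild type and 229, 210.04 and 236 CPM in the line, with overlap. CYP72A13 (AT3G14660), the closest to it among the 52 at 88.3% protein identity, measured 303, 312 and 259 CPM in the 6 d wild type and 244, 157 and 208 CPM in the SnRK1-labelled line. That change of -0.52 ± 0.16 was called lower but turned to 0.064 with library totals.

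CYP72A13 measured 417, 408 and 339.6 CPM in the 1 d wild type and 540.2, 512 and 544 CPM in the S1-labelled line, with no overlap and no call (0.45 ± 0.16, edgeR adjusted p = 0.148). CYP72A7 and CYP72A14 were called in neither line. With library totals both were called higher in the SnRK1-labelled line (0.94 and 0.63), and CYP72A7 also with the 5000-gene factors (0.71). All 5 CYP72A genes had positive values in the S1-labelled line, with a median of 0.75 on the log2 scale. By edgeR 0 of 5 were called, while 4 were higher at an unadjusted p under 0.05, as 8.27% of all genes were.

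Of the 22 CYP71B members, 14 lie in 2 runs on chromosome 3, and 12 of these 14 were tested. In the S1-labelled line 7 of the 12 rose and 0 fell, where 1.63% and 0.952% of all genes did. In the SnRK1-labelled line 3 rose and 5 fell, near the 35.4% and 33% of all genes. In the first run 5 of 6 tested genes rose in the S1-labelled line. Of the 7 genes in the 2 runs that rose there, only CYP71B19 kept its call whichever 1 library of the S1 experiment was left out.

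CYP71B19 (AT3G26170) measured 23.5, 29.5 and 24.2 CPM in the 1 d wild type and 53.5, 50.3 and 48.6 CPM in the S1-labelled line, a log2 fold change of 0.99 ± 0.14 (edgeR adjusted p = 0.00122). It also rose in the SnRK1-labelled line, from 24.3, 26.3 and 34.9 to 63.3, 61.8 and 53.9 CPM (1.09 ± 0.14). Groups overlapped in neither experiment.

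CYP71B20 (AT3G26180) is 95.02% identical to CYP71B19 in protein, and 19.5% of the 50-base stretches of its transcript also occur in CYP71B19, so reads may be split between them. It measured 63.3, 63.5 and 53.2 CPM in the 1 d wild type and 91.3, 93.1 and 89.8 CPM in the S1-labelled line (0.61 ± 0.14, edgeR adjusted p = 0.0308). CYP71B20 lost this call with any 1 library of these groups left out, at 0.53 to 0.65. In the SnRK1 experiment it measured 51.3, 50.2 and 77.3 CPM in wild type and 71.3, 64.1 and 65.5 CPM in the line, with overlap and no call (0.19 ± 0.14). There it was called higher with library totals (0.77) and with the 5000-gene factors (0.54).

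CYP71B23 (AT3G26210) rose in both lines. It measured 15.3, 17.1 and 26 CPM in the 1 d wild type and 39.1, 50.6 and 32 CPM in the S1-labelled line (1.06 ± 0.24, edgeR adjusted p = 0.0239). In the SnRK1 experiment it went from 19.9, 17.9 and 32.9 to 92.8, 128 and 96.2 CPM (2.22 ± 0.23). The next gene of the run, CYP71B3 (AT3G26220), differed between the lines. It rose in the S1-labelled line, from 69.6, 83.5 and 88.3 to 123, 122 and 123 CPM (0.61 ± 0.12, edgeR adjusted p = 0.0115).

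In the SnRK1-labelled line CYP71B3 stood at 68.3, 68.3 and 71.1 CPM against 74.8, 91.4 and 96.1 in wild type, a called change of -0.33 ± 0.12 that became 0.26 with library totals and lost its call without replicate 2 or 3 of the 6 d wild type. CYP71B24 (AT3G26230), the closest to it among the 52 at 81.1% protein identity, measured 19.6, 21.4 and 18 CPM in the 1 d wild type and 34.3, 33.9 and 32.9 CPM in the S1-labelled line (0.78 ± 0.17, edgeR adjusted p = 0.0186). In the SnRK1 experiment CYP71B24 overlapped, at 12.1, 15.3 and 21.9 CPM in wild type and 18.8, 19.9 and 14.9 in the line. There it was called higher with library totals (0.78) and with the 5000-gene factors (0.55). CYP71B22 rose in the SnRK1-labelled line, from 2.25 ± 0.0996 to 6.13 ± 2.58 CPM (SD, n = 3), and had no call in the S1-labelled line.

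In the second run on chromosome 3, 2 of 6 tested genes rose in the S1-labelled line, where 1.63% of all genes did. In the SnRK1-labelled line 4 of these 6 fell and 0 rose, where 33% and 35.4% of all genes did. CYP71B26 (AT3G26290) measured 14.9, 16.9 and 16 CPM in the 1 d wild type and 24.2, 28.8 and 28 CPM in the S1-labelled line (0.76 ± 0.16, edgeR adjusted p = 0.016). Its SnRK1 groups overlapped, at 14.9, 20.2 and 19.6 CPM in wild type and 23.4, 25.7 and 18 CPM in the line. There it was called higher with library totals (0.92), with the 5000-gene factors (0.69) and with a replicate block (0.32). CYP71B36 (AT3G26320) went from 2.67, 1.9 and 3.2 to 5.31, 5.4 and 6.13 CPM in the S1 experiment (1.09 ± 0.26, edgeR adjusted p = 0.0355), and this call was lost with DESeq2 (1.10, adjusted p = 0.0607) and with any 1 library of these groups left out, at 0.94 to 1.25. In the SnRK1 experiment it stood at 1.54, 2.3 and 2.02 CPM in wild type and 1.13, 1.53 and 1.2 in the line, with no overlap and no call.

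The genes of this run that fell in the SnRK1-labelled line were CYP71B4, CYP71B34, CYP71B35 and CYP71B37. With library totals CYP71B4, CYP71B34 and CYP71B35 lost this call, and CYP71B4 and CYP71B34 also lost it with the 5000-gene factors. CYP71B37 was not tested without replicate 1 of the 6 d wild type. CYP71B4 (AT3G26280) measured 74.6, 95 and 99 CPM in wild type and 62.6, 62.6 and 61.2 CPM in that line (-0.52 ± 0.12, but 0.071 with library totals). In the S1 experiment its line, at 112, 119.8 and 131 CPM, lay above the 1 d wild type, at 89.1, 94.2 and 96.9 CPM, with no call. CYP71B34 (AT3G26300) measured 36.5, 38 and 35.5 CPM in the 6 d wild type and 25, 25 and 25.5 CPM in the SnRK1-labelled line (-0.55 ± 0.12, but 0.056 with library totals).

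CYP71B34 stood at 40.7, 50.4 and 44.6 CPM in the 1 d wild type and 41.3, 37.5 and 45.6 CPM in the S1-labelled line, with overlap. CYP71B37 was close to the limit of the counts, with 31 counts in the 6 d wild type and 9 in the SnRK1-labelled line. Outside these runs, CYP71B5 fell in the SnRK1-labelled line, from 32.2 ± 3.34 to 22.5 ± 2.75 CPM (SD, n = 3), with a log2 fold change of -0.51 ± 0.15 that stood at 0.084 with library totals.

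Another run of 4 CYP71B genes lies on chromosome 1, and 0 of its 4 genes were called in the S1-labelled line, also at an unadjusted p under 0.05. CYP71B2 (AT1G13080) had the largest fall among the 40 genes in the SnRK1-labelled line, from 13.3, 14.3 and 14.7 CPM in wild type to 3.01, 2.08 and 1.2 CPM, a log2 fold change of -2.71 ± 0.23 with a clear gap. In the S1 experiment it measured 12.9, 17.4 and 14 CPM in wild type and 15.3, 17.7 and 15.6 in the line. CYP71B29 (AT1G13100) fell from 11.7, 17.1 and 17.6 to 6.52, 6.14 and 5.71 CPM in the SnRK1-labelled line (-1.30 ± 0.22).

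CYP71B29 measured 10.8, 18.3 and 20.2 CPM in the 1 d wild type and 13.4, 15.1 and 12.7 CPM in the S1-labelled line. Its neighbour CYP71B28 (AT1G13090), 80.3% identical in protein, rose slightly in the SnRK1-labelled line, from 25.2, 27 and 21.9 to 37, 29.97 and 31.6 CPM (0.40 ± 0.12). In the S1 experiment it stood at 17.9, 17.8 and 16.6 CPM in wild type and 18.8, 20.4 and 19.6 CPM in the line, without a call. CYP71B7, the fourth gene, was at 89.5 ± 3.43 CPM in the 6 d wild type and 102 ± 11.5 in the SnRK1-labelled line (SD, n = 3), and was called in neither line. With library totals (0.78) and with the 5000-gene factors (0.55) it was called higher in the SnRK1-labelled line.

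**Figure D4:**
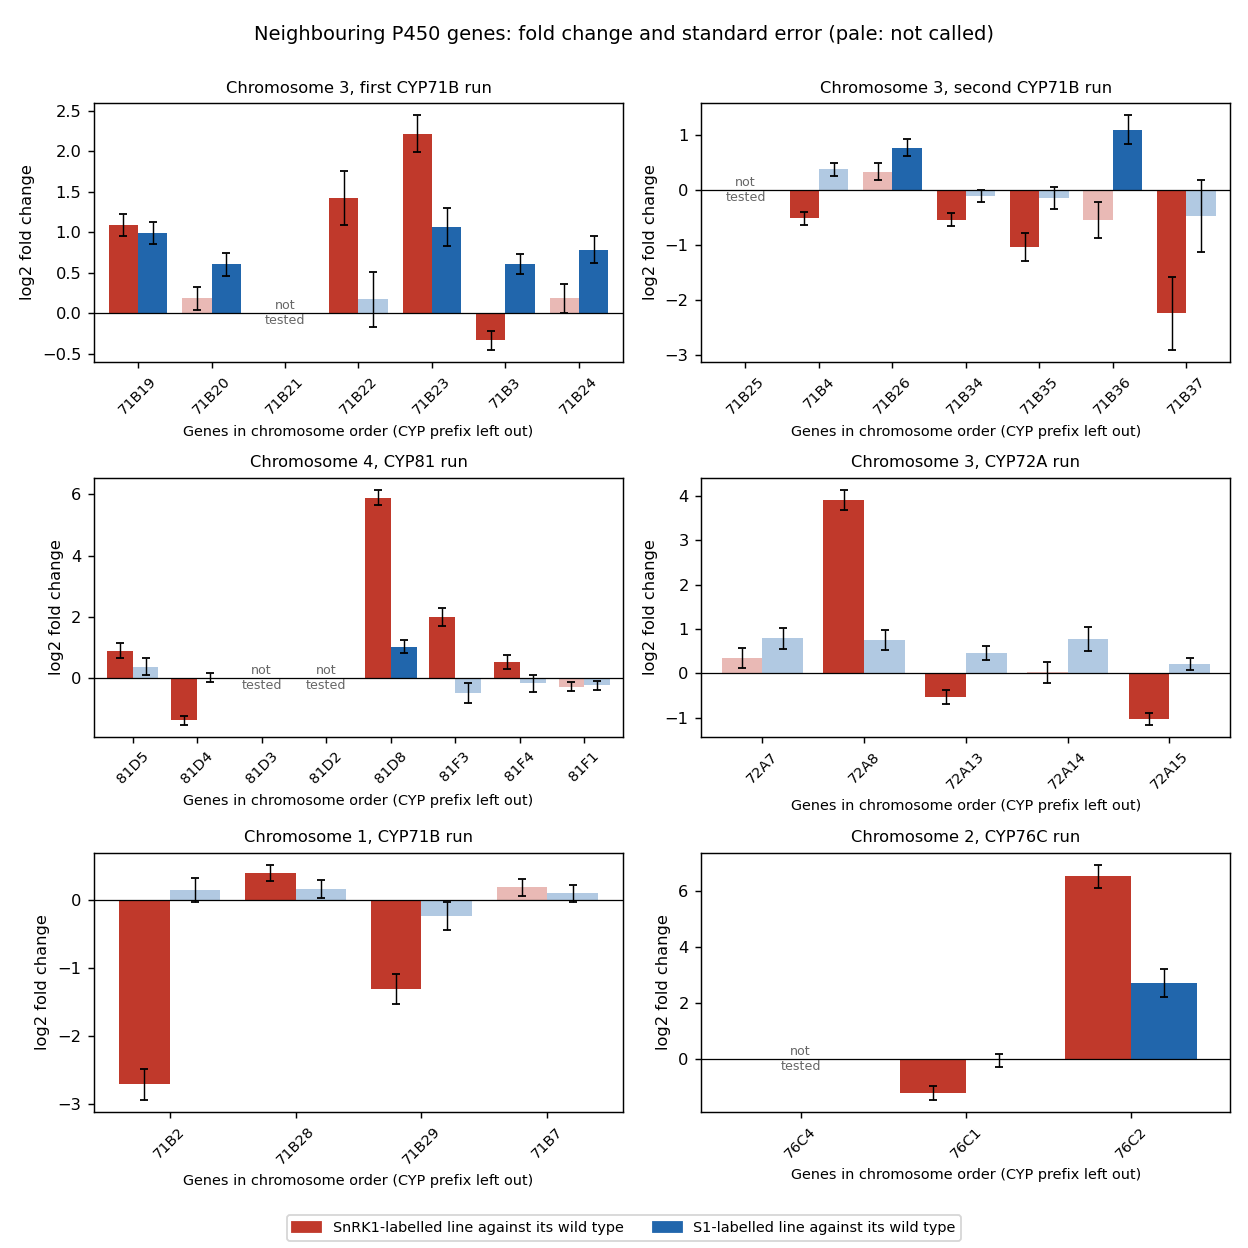
Log2 fold change with its standard error for P450 genes in chromosome order within 6 runs, red for the SnRK1-labelled line and blue for the S1-labelled line, each against its wild type, and pale where not called. In the first CYP71B run 5 blue bars are solid and above 0, while solid red bars point both ways in all 6 runs except the second CYP71B run, where all 4 point down. Of these, CYP71B4, CYP71B34 and CYP71B35 lost the call with library totals.

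In CYP71A, a pair on chromosome 3 rose in the SnRK1-labelled line and a pair on chromosome 4 fell. CYP71A22 (AT3G48310) measured 17.9, 19.1 and 15.3 CPM in the 6 d wild type and 48.6, 47.9 and 37.9 CPM in the SnRK1-labelled line (1.35 ± 0.16). It also rose in the S1-labelled line, from 23.2, 25 and 16 to 38.9, 34.8 and 41.5 CPM (0.85 ± 0.16, edgeR adjusted p = 0.0082). CYP71A21 (AT3G48320), 86.7% identical in protein, rose from 3.6, 4.28 and 4.62 to 36.1, 31.6 and 25.5 CPM in the SnRK1-labelled line (2.93 ± 0.18).

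In the S1 experiment CYP71A21 measured 7.32, 7.61 and 7.8 CPM in wild type and 9.9, 8.29 and 9.19 CPM in the line, without a call. Exons of other genes overlap 39.99% of its length, which leaves its counts uncertain. CYP71A20 (AT4G13310) fell from 2.83, 2.8 and 3.46 CPM in the 6 d wild type to 2.01, 0.632 and 1.35 CPM in the SnRK1-labelled line (-1.21 ± 0.39), and this call was lost without replicate 2 of the line (-0.82), with library totals (-0.62) and with the 5000-gene factors (-0.85). Its neighbour CYP71A19, at 1.71 ± 0.225 CPM in wild type and 0.282 ± 0.163 in the line (SD, n = 3), fell, with a log2 fold change of -2.58 ± 0.76. The 3 root markers that were tested, CASP1, CASP2 and ESB1, also fell in this line, and their part in these values was not tested.

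Between the wild types, 4 of the 40 genes were higher with 6 d of Est than with 1 d and 3 were lower. Over all genes tested, 6.17% were higher and 5.94% lower. These libraries are also the controls of the line comparisons, and the length of Est treatment cannot be told apart from the time spent on medium without it. The split became 4 against 5 with library totals or the 5000-gene factors and 3 against 4 with DESeq2. The count of 7 fell to 4 without replicate 1 and to 3 without replicate 2 of the 6 d wild type.

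CYP81D11 was lower in the 6 d wild type, at 161 ± 30.03 CPM against 403 ± 54.9 CPM (SD, n = 3), a log2 fold change of -1.33 ± 0.22 (edgeR adjusted p = 0.00123, lower in 3 of 3 libraries). CYP71A21 was also lower (-0.89 ± 0.21, edgeR adjusted p = 0.0113). CYP71B35 (AT3G26310) measured 5.28, 3.79 and 5.48 CPM with 6 d of Est and 9.004, 9.03 and 9.59 CPM with 1 d (-0.94 ± 0.23, edgeR adjusted p = 0.0128). In the SnRK1-labelled line it fell to 2.88, 1.72 and 2.55 CPM (-1.04 ± 0.26, but -0.44 and no call with library totals), while the S1-labelled line stood at 8.82, 9.19 and 6.89.

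CYP81F4 was higher with 6 d of Est, at 21.4 ± 1.19 against 9.45 ± 1.31 CPM (1.19 ± 0.26, edgeR adjusted p = 0.00743), with the antisense overlap given above. Its S1-labelled libraries measured 8.58, 10.8 and 5.97 CPM and the 1 d wild type 8.02, 9.75 and 10.6. CYP72A14 (AT3G14680) measured 21.4, 24.5 and 18.8 CPM with 6 d and 11.7, 7.13 and 10.6 CPM with 1 d (1.12 ± 0.27, edgeR adjusted p = 0.0134). The SnRK1-labelled line stood at 22.7, 29.2 and 13.2 and the S1-labelled line at 19.9, 19.5 and 12.1 CPM.

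CYP71B28 was slightly higher with 6 d (0.51 ± 0.13, edgeR adjusted p = 0.0159), and its wild types did not overlap. CYP71A20 was higher too, at 3.03 ± 0.375 against 1.06 ± 0.529 CPM (1.56 ± 0.45, edgeR adjusted p = 0.0324), but with DESeq2 its adjusted p was 0.0514. Its 1 d wild type held 0.703, 1.66 and 0.8 CPM and the S1-labelled line 0.725, 0.36 and 0.459.

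The same families hold 48 other genes in the reference annotation, of which 44 are in the files and 22 were tested. In the SnRK1-labelled line 12 of the 22 rose and 6 fell, against 35.4% and 33% of all genes tested. In the S1-labelled line 1 rose, which was CYP71A12, and 0 fell, while 6 were higher and 0 lower at an unadjusted p under 0.05. Over all genes tested 1.63% rose and 0.952% fell there, and 8.27% and 8% were higher and lower at that unadjusted p. The largest rises in the SnRK1-labelled line were those of CYP71A13, CYP71B15 and CYP71A18, the last at 0 counts in its wild type and at 9.81 ± 1.94 CPM in the line. The largest falls were those of CYP71B13, from 17.5 ± 2.92 to 1.23 ± 0.136 CPM (-3.82 ± 0.25), CYP72B1 (-1.12 ± 0.19) and CYP71B11 (-1.03 ± 0.22). CYP72B1 is the brassinosteroid-inactivating enzyme BAS1.

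Of 7 electron donors of P450s, 4 rose in the SnRK1-labelled line, all of them cytochrome b5 genes, where 35.4% of all genes tested rose. In the S1-labelled line 0 were called, and 1 was lower at an unadjusted p under 0.05, as 8% of all genes were. CB5-C went from 0.561 ± 0.312 to 9.97 ± 3.32 CPM and CB5-E from 105 ± 8.71 to 163 ± 20.3 CPM. The reductase ATR1 fell, from 282 ± 7.86 to 192 ± 16.5 CPM (-0.55 ± 0.13), and ATR2 had no call.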

How the data were processed

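RNA-seq counts of 12 seedling libraries were analysed. Each deposited file holds the raw, whole-number counts of 1 library by gene. The submitters' processing notes name FastQC, Bowtie 0.12.8, SAMtools 0.1.18 and TAIR10. How the authors counted reads, whether strand was used and what became of reads mapping more than once are points not given in the sources used here. All columns were matched to libraries.

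The members and the gene lists were chosen with earlier results of these data known. The main test was edgeR 4.0.16 (R 4.3.3) with filterByExpr at a minimum count of 10, TMM scaling, group as the only term and all 12 libraries. The biological coefficient of variation was 13.2%. The procedure was tested on simulated data with few genes changed, equally up and down. That test does not address the scaling shift of the SnRK1 comparison. Standard errors are the log2 fold change divided by the root of its F statistic. Contrasts were each line against its wild type, the difference of these responses, and the wild types. A bound from 3 counts covers counting error only. Alternatives were other scalings, DESeq2 1.42.0, limma-voom (limma 3.58.1), other filters, only the groups compared, a replicate block, each library left out, a 2-fold minimum, leaving out overlapping genes, and, added after seeing the data, factors from the 5000 most expressed genes.

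Exon lengths, overlaps, gene order and protein identity (MAFFT 7.526) came from the TAIR10.1 RefSeq annotation. Promoter motifs were not analysed here. Values in every library are given for members with a pathway role, the 8 highest and 8 lowest changes in the SnRK1 comparison with at least 5 CPM in the higher group, every gene called in the S1 or wild-type comparison, and the highest per length in each group. Of each other list, up to 4 called genes with the smallest p could be named. CYP71A19, CYP71B5, CYP71B7, CYP71B22, CYP71B25, CYP71B37, CYP76C4, CYP81D2, CYP81D3, CYP81D5, CYP82C3, CB5-E, ATR1, ATR2, MRN1 and the root markers were named after their values were seen. Figures were drawn with matplotlib 3.10.9 in Python 3.11.15.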

Additional observations from a re-analysis of the deposited data

Results flagged for a closer look

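The response to the SnRK1-labelled line differed from that to the S1-labelled line for 25 of the 40 tested genes, by edgeR's test of the difference itself. Over all genes tested the difference was called for 54.5%, so the count lies near that share. These P450 genes were chosen with that comparison in view, so the values describe them and support nothing further. On the log2 scale the SnRK1 response exceeded the S1 response by 6.71 for CYP82C2, whose fitted value rests on 0 counts in the S1-labelled line and depends on the prior count. The call of CYP82C2 was lost without replicate 2 or replicate 3 of the 1 d wild type. The excess was 4.86 for CYP81D8, 3.81 for CYP76C2, 3.82 for CYP94C1, 3.16 for CYP72A8 and 2.65 for CYP71A21. It was 2.47 for CYP81F3, 1.99 for CYP81D1, 1.24 for CYP71B22, 1.15 for CYP71B6 and 1.15 for CYP71B23. The call of CYP71B22 was lost with limma-voom.

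For 14 genes the SnRK1 response was the lower one. The differences were -2.85 for CYP71B2, -1.63 for CYP71B36, -1.39 for CYP81D4, -1.25 for CYP72A15 and -1.17 for CYP76C1. They were -1.15 for CYP81D11, -1.07 for CYP71B29, -0.98 for CYP72A13, -0.94 for CYP71B3 and -0.90 for CYP71B4. The smallest were -0.89 for CYP71B35, -0.60 for CYP71B24, -0.56 for CYP71B5 and -0.43 for CYP71B34. With DESeq2 (adjusted p 0.061 to 0.072), library totals and the 5000-gene factors, CYP71B35, CYP71B24, CYP71B5 and CYP71B34 each lost their call. CYP71B34 stood at 0.053 with library totals. CYP71B24 also lost its call with limma-voom. CYP71B29 lost its call with library totals and the 5000-gene factors, and CYP71B4 and CYP76C1 with library totals.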

How the results depend on the processing

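In the SnRK1-labelled comparison 30 of 40 genes were called, 29 to 34 with single libraries left out. With library totals alone, the log2 fold changes of CYP71B3, CYP71B4, CYP71B34, CYP72A13, CYP81D11 and CYP81F1 turned to 0.26, 0.071, 0.056, 0.064, 0.43 and 0.33, and CYP71B3 stood at 0.029 with factors from the 5000 most expressed genes. In the S1-labelled comparison the count of 11 ran from 3 to 14 with single libraries left out, and 5 changed at least 2-fold. The difference of the responses gave 25, and 20 to 26. Between the wild types the count of 7 ran from 3 to 8, was 4 at 2-fold and 4 without overlapping or near-identical genes. The other planned fits stayed within 1.5 times these counts, and no fit limited to the compared groups was made for the difference. The same-numbered replicates did not deviate together (r = -0.0917 to 0.118), and with a replicate block the counts were 31, 11, 26 and 8 for the SnRK1, S1, difference and wild-type comparisons. Depth limits the 12 genes not tested.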
